A study of Mus musculus with 6 samples.

Results

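The BCL2 family decides whether a cell opens the outer membrane of its mitochondria and dies. Its RNA was examined here in mouse OT1 CD8+ T cells, killer T cells whose transgenic receptor sees an ovalbumin (OVA) peptide. The members were the 10 rows of the deposited table, of 27480 genes, whose symbol was Bcl2, Bcl2l1, Mcl1, Bcl2a1b, Bcl2a1d, Bcl2l11, Bax, Bak1, Bbc3 or Pmaip1. All 10 had a row and all 10 passed the filter on low counts. In 3 libraries the cells carried an overexpression vector (vector 1 to 3) and in 3 an overexpression construct for PTMA, prothymosin alpha (PTMA 1 to 3). The genotype of all 6 is given as WT, and all cells received OVA peptide for 48 h, so no unstimulated or untransduced cells serve as a reference. The labels give no age, no number of animals and no species for the construct, and do not say that libraries of a group came from separate animals or cultures. P-values therefore cover only the scatter of these 6 libraries, and that scatter may be technical.

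In this family the pro-survival proteins Bcl-2 (from Bcl2), Bcl-xL (Bcl2l1), Mcl-1 (Mcl1) and A1 (Bcl2a1b and Bcl2a1d) sit on the mitochondrial outer membrane and hold the pore formers Bax and Bak (Bak1) in check. The BH3-only proteins Bim (Bcl2l11), Puma (Bbc3) and Noxa (Pmaip1) sense stress, bind the pro-survival proteins and so release the pore formers. In T cells Bim is known for removing activated cells when a response ends, and the pro-survival members replace each other in part between the resting, activated and memory states.

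Total counts ran from 54989408 to 66767589 per library. In CPM (counts relative to library size, scaled by edgeR's TMM method) Ptma had values of 848, 783 and 1146 for vector 1 to 3, against 1152, 1346 and 1272 for PTMA 1 to 3. Every PTMA library lay above every vector library, with vector 3 close to PTMA 1. The difference did not pass the test (log2 fold change 0.44, SE 0.13, edgeR unadjusted p = 0.009, adjusted p = 0.951). Without vector 3 the log2 fold change of Ptma was 0.63 (SE 0.08, edgeR adjusted p = 0.101). Whether the RNA of the construct is counted under the mouse gene is not known. The libraries held T cell RNA: all 10 T cell markers were tested, with Cd8a at 598 to 682 CPM and Cd4 at 0.185 to 1.19 CPM. Vector 3 stood apart from its group, with a chi-square per gene of 53.3 against vector 1 and 84.8 against vector 2, where vector 1 and vector 2 gave 17.7. For this reason each member's log2 fold change is also given without vector 3.

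No member passed the test between the groups. In the edgeR quasi-likelihood fit over 16592 genes 0 of 10 members passed at an adjusted p under 0.05, a rule that called 0.0121% of all genes tested, and 0 of 10 passed at an unadjusted p under 0.05, where 4.65% of all genes did. DESeq2 called 0 members at an adjusted p under 0.05 (0.235% of all genes) and 1, Bcl2l11, at an unadjusted p under 0.05 (3.73% of all genes). Of the members 4 had a positive and 6 a negative log2 fold change (PTMA minus vector), with a median of -0.04, beside 7764 positive, 8828 negative and a median of -0.015 over all genes tested. The 5 pro-survival members had a median of -0.05 and the 5 pro-death members one of -0.03. Without vector 3 the pro-survival median was -0.08 and the pro-death median turned to 0.09, with 5 members positive and 5 negative, beside a median of -0.0095 over all genes in that fit. The difference between the classes was not tested. With all libraries the 95% intervals of the 10 log2 fold changes lay between -0.53 and 0.49. A change of more than 1.45-fold in either direction thus lay outside the interval of every member in that fit. Without vector 3 the interval of Bcl2l11 reached -0.565. In CPM the libraries of both groups overlapped for 10 of 10 members. The groups did not overlap for 10.8% of all genes tested (5.39% with PTMA higher and 5.38% with PTMA lower). In these bulk libraries fewer cells of a type and less RNA per cell cannot be told apart.

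Compared per length, in FPKM (fragments scaled to gene length and library size), the members spanned a wide range in the same cells. The A1 gene Bcl2a1b was the highest, at a mean of 140 FPKM over the 6 libraries, followed by Bcl2a1d at 109 FPKM and Bax at 99.2 FPKM. Mcl1 came next at 52.1 FPKM, then Bbc3 at 18.4, Bcl2 at 17.1 and Bcl2l11 at 15.2 FPKM. Bcl2l1 at 9.3 FPKM, Pmaip1 at 7.11 FPKM and Bak1 at 2.59 FPKM closed the order. Of the 9 neighbouring steps 6 were in the same order in all 6 libraries. The steps that were not were those of Bcl2a1d over Bax (5 of 6 libraries), Bbc3 over Bcl2 (4 of 6) and Bcl2 over Bcl2l11 (5 of 6), so these neighbours did not differ beyond their spread. Per length, Bax thus stood far above the other pore former Bak1. Bcl2a1b and Bcl2a1d stood above the other pro-survival members per length, within the limit on A1 counts given below.

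**Figure D1:**
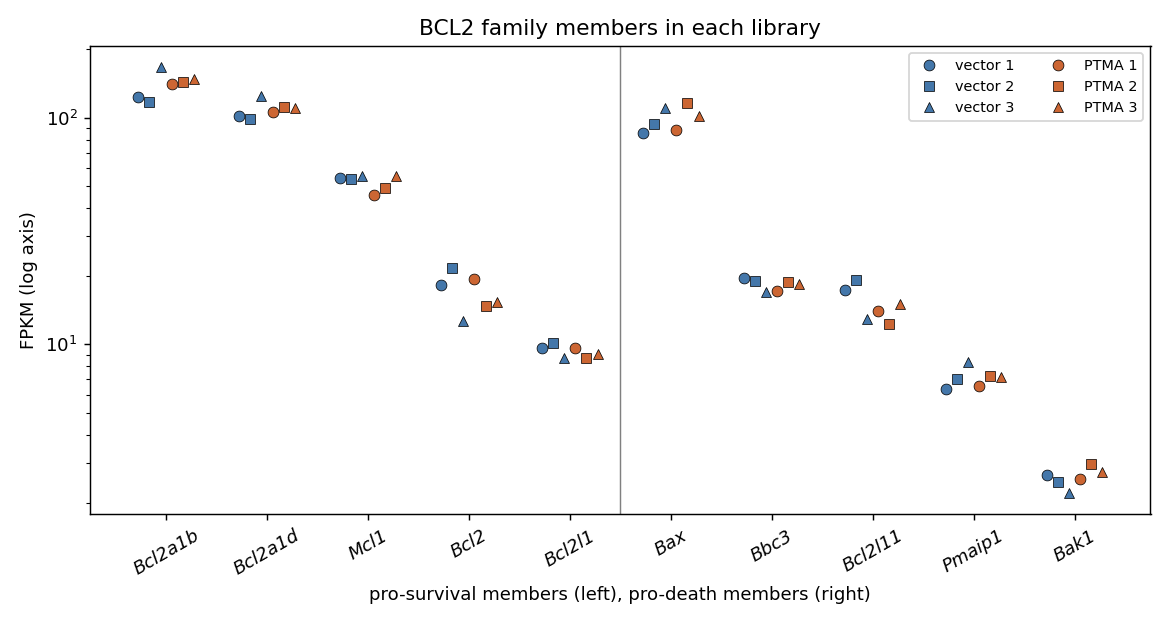
FPKM on a log axis of the 5 pro-survival members (left) and the 5 pro-death members (right), with a point for each of the 3 vector libraries (blue) and 3 PTMA libraries (orange). The spread between genes, from 2.21 FPKM for Bak1 to 167 FPKM for Bcl2a1b, is far wider than that between libraries of a gene.

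The A1 genes are near-identical copies, and their shared sequence bears on how their counts can be read. Mouse A1 is induced by antigen receptor and NF-kB signals. Bcl2a1b (ENSMUSG00000089929) lies on the plus strand at chr9:89199209-89207827 and Bcl2a1d (ENSMUSG00000099974) on the minus strand at chr9:88723285-88731914 of GRCm38, as the table lists them. A further copy, Bcl2a1a (ENSMUSG00000102037), lies at chr9:88956900-88962419. Their coding sequences, from GENCODE M21, are all 516 bases long. Bcl2a1b and Bcl2a1d differ at 6 of these bases, Bcl2a1d and Bcl2a1a at 7, and Bcl2a1b and Bcl2a1a at 11. The first 90 coding bases are shown because no stretch of that length held more differences between Bcl2a1b and Bcl2a1d. They lie at chr9:89199360-89199449 (plus strand, Bcl2a1b), chr9:88731630-88731719 (minus strand, Bcl2a1d) and chr9:88957051-88957140 (plus strand, Bcl2a1a) of GRCm38. Capitals mark the 6 positions where the 3 copies are not all the same.
Bcl2a1b: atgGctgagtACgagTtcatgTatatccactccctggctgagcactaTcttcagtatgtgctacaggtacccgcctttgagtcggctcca
Bcl2a1d: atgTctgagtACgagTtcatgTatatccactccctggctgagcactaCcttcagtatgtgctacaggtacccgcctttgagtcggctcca
Bcl2a1a: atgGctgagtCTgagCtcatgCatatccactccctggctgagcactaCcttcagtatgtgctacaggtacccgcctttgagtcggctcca
Over whole transcripts, 31.1% of the 100-base windows of Bcl2a1b and 54.7% of those of Bcl2a1d occur unchanged in another of these copies. No source used here says how reads with several matches were counted. The split of counts between the copies, and their total, are therefore uncertain.

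Bcl2a1b stood at 124, 117 and 167 FPKM in vector 1 to 3 and at 141, 143 and 148 FPKM in PTMA 1 to 3. All 3 PTMA libraries lay between vector 1 and vector 3, so the wide vector group enclosed the narrow PTMA group. Its log2 fold change was 0.08 (SE 0.14, edgeR adjusted p = 0.966). Bcl2a1d stood at 102, 98.2 and 125 FPKM in the vector libraries and at 106, 111 and 110 FPKM in the PTMA libraries, with a log2 fold change of 0.00 (0.0024, SE 0.11, adjusted p = 0.998). Vector 3 was again the highest and vector 2 the lowest. The copy Bcl2a1a was lower per length, at 11.9 to 20.6 FPKM in the vector and 14.4 to 15.8 FPKM in the PTMA libraries, with a log2 fold change of -0.08 (SE 0.20, edgeR adjusted p = 0.977). With the counts of the 3 copies added into 1 feature, the vector libraries averaged 243 ± 51.2 CPM and the PTMA libraries 249 ± 3.91 CPM (SD, n = 3 per group), and the log2 fold change was 0.04 (SE 0.13, edgeR adjusted p = 0.981). Without vector 3 the log2 fold change of Bcl2a1b was 0.28 (SE 0.07, edgeR adjusted p = 0.196) and that of Bcl2a1d 0.15 (SE 0.07, adjusted p = 0.339). Dendritic cells, which also make A1, had 8 of 10 markers in the table, with a summed level of 42.3 to 45.0 CPM in the vector and 50.6 to 60.4 CPM in the PTMA libraries. Among them Flt3 had a count of 0 in vector 1 and vector 2, and Ccl17 in all vector libraries and in PTMA 3. Ccl22, a chemokine of mature dendritic cells, had 2.09, 0.852 and 0.709 CPM for vector 1 to 3 against 5.99, 8.42 and 5.86 for PTMA 1 to 3. Most of the summed level was H2-Ab1, an antigen presentation gene, at 26.1 to 35.0 CPM over all libraries. Of 7 dendritic cell markers tested 5 had positive and 2 negative log2 fold changes, beside 7764 positive and 8828 negative over all genes tested. Itgax had 3.75, 2.54 and 3.85 CPM for vector 1 to 3 against 2.4, 2.98 and 2.86 for PTMA 1 to 3, and Zbtb46 was at 2.21 to 2.73 CPM in the vector and 0.918 to 2.46 CPM in the PTMA libraries. In DESeq2 2 of the dendritic cell markers, Ccl22 and Fscn1, passed at an adjusted p under 0.05, where 0.235% of all genes did. In edgeR 0 did, where 0.0121% of all genes tested did. The part of dendritic cell RNA in the A1 values was not tested.

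Mcl1 encodes a short-lived protein that T cells need at every stage. Its gene (ENSMUSG00000038612) lies at chr3:95658788-95663176 on the plus strand. Mcl1 stood at 54.0, 53.9 and 55.1 FPKM in vector 1 to 3 and at 45.5, 49.1 and 55.3 FPKM in PTMA 1 to 3. PTMA 1 and PTMA 2 lay below all vector libraries, while PTMA 3 lay above them. The log2 fold change was -0.12 (SE 0.08, edgeR adjusted p = 0.951) with all libraries and -0.09 (SE 0.08, adjusted p = 0.675) without vector 3.

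Bcl2, the founding member, protects resting and memory T cells. It (ENSMUSG00000057329) lies at chr1:106538178-106714274 on the minus strand. Bcl2 stood at 18.3, 21.8 and 12.7 FPKM in vector 1 to 3 and at 19.4, 14.7 and 15.3 FPKM in PTMA 1 to 3. Vector 3 was the lowest library and vector 2 the highest, a 1.71-fold range inside a single group. The log2 fold change was -0.09 (SE 0.16, edgeR adjusted p = 0.966), and -0.25 (SE 0.11, adjusted p = 0.339) without vector 3. An antisense gene, D630008O14Rik, shares exon positions with Bcl2, and the strand setting of the counting is unknown. It had 0.52 to 1.78 CPM, against 135 to 212 CPM for Bcl2.

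Bcl2l1, whose long product Bcl-xL rises after costimulation, had the narrowest range of the pro-survival members over the 6 libraries. It (ENSMUSG00000007659) lies at chr2:152780668-152831728 on the minus strand. Bcl2l1 stood at 9.64, 10.1 and 8.69 FPKM in vector 1 to 3 and at 9.66, 8.72 and 9.05 FPKM in PTMA 1 to 3. The groups covered nearly the same range, and the log2 fold change was -0.05 (SE 0.08, edgeR adjusted p = 0.959), or -0.08 (SE 0.08, adjusted p = 0.687) without vector 3. A gene level does not separate Bcl-xL from the short pro-death form of the same gene.

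Among the pro-death members Bcl2l11, which encodes Bim, had the smallest p-value of the 10 members. Its gene (ENSMUSG00000027381) lies at chr2:128126038-128162547 on the plus strand. Bcl2l11 stood at 17.4, 19.3 and 13 FPKM in vector 1 to 3 and at 14, 12.3 and 15.1 FPKM in PTMA 1 to 3. Vector 1 and vector 2 lay above all PTMA libraries, and vector 3 lay among them. The group means were 147 ± 23.5 CPM for vector and 123 ± 11.0 CPM for PTMA (SD, n = 3 per group). The log2 fold change of -0.26 (SE 0.12) did not pass the test (edgeR adjusted p = 0.951). Without vector 3 it was -0.38 (SE 0.08, edgeR adjusted p = 0.191). Bcl2l11 and Bcl2a1b were then the 2 of 10 members at an unadjusted p under 0.05, where that fit gave 15.4% of all genes tested (7.68% higher and 7.75% lower). At an adjusted p under 0.05 it called 0 members and 0.00578% of all genes.

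The other BH3-only members showed less. Bbc3, which encodes Puma, a target of p53 and FoxO factors, lies at chr7:16308393-16318205 on the plus strand (ENSMUSG00000002083). It stood at 19.6, 19.1 and 17.1 FPKM in vector 1 to 3 and at 17.2, 18.9 and 18.5 FPKM in PTMA 1 to 3, with the groups overlapping throughout. Its log2 fold change was -0.03 (SE 0.09, edgeR adjusted p = 0.979), and -0.06 (SE 0.09, adjusted p = 0.793) without vector 3. Pmaip1 (ENSMUSG00000024521, chr18:66458533-66465565, plus strand) encodes Noxa, which binds Mcl-1 and A1. It stood at 6.36, 7.02 and 8.32 FPKM in vector 1 to 3 and at 6.55, 7.25 and 7.15 FPKM in PTMA 1 to 3, with vector 3 the highest of the 6. Its log2 fold change was -0.06 (SE 0.13, edgeR adjusted p = 0.975) and turned to 0.09 (SE 0.10, adjusted p = 0.74) without vector 3.

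The pore formers likewise did not separate the groups. Bax (ENSMUSG00000003873) lies at chr7:45461697-45466898 on the minus strand. It stood at 85.9, 93.8 and 110 FPKM in vector 1 to 3 and at 88.0, 116 and 102 FPKM in PTMA 1 to 3. Vector 3 and PTMA 2 were the high libraries, and vector 1 and PTMA 1 the low ones, so the spread ran within both groups. The log2 fold change was 0.07 (SE 0.13, edgeR adjusted p = 0.965), and 0.21 (SE 0.11, adjusted p = 0.394) without vector 3. Bak1 (ENSMUSG00000057789) lies at chr17:27019810-27029009 on the minus strand and had the fewest reads of the members, 381 to 523 counts per library. It stood at 2.64, 2.47 and 2.21 FPKM in vector 1 to 3 and at 2.54, 2.96 and 2.72 FPKM in PTMA 1 to 3. The log2 fold change of 0.16 (SE 0.14, edgeR adjusted p = 0.952) was the highest of the 10, with PTMA 1 inside the vector range, and it was 0.12 (SE 0.15, adjusted p = 0.764) without vector 3. The gene Ggnbp1 on the other strand shares exon positions with Bak1 and had 0.306 to 0.578 CPM, against 6.14 to 8.0 CPM for Bak1. Other members share exon positions with a gene on the same strand. For Bax this was Gm45808, at 0.0 to 0.0536 CPM against 152 to 205 CPM for Bax. For Bcl2a1b it was Gm29094, at 0.0918 to 2.95 CPM against 101 to 157 CPM for Bcl2a1b. How reads in shared exons were counted is unknown.

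**Figure D2:**
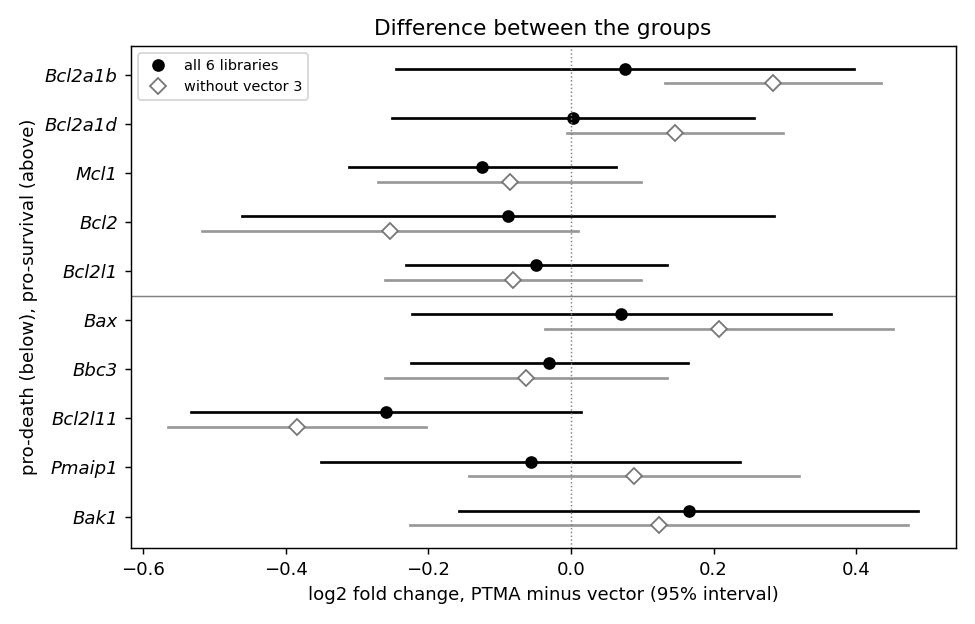
Log2 fold change (PTMA minus vector, edgeR) of the 10 members with its 95% interval, for all 6 libraries (filled circles) and without vector 3 (open diamonds). Every interval with all libraries crosses 0, and without vector 3 those of Bcl2a1b and Bcl2l11 do not.

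The balance of pro-survival to pro-death RNA differed between the groups by less than the spread between libraries. The summed FPKM of the 5 pro-survival members was 326 ± 36.9 (SD, n = 3) in the vector and 329 ± 7.68 (SD, n = 3) in the PTMA libraries, and that of the 5 pro-death members 141 ± 9.47 and 143 ± 14.4 (SD, n = 3 per group). Within each library the first sum was 2.33, 2.12 and 2.44 times the second for vector 1 to 3, against 2.51, 2.08 and 2.32 times for PTMA 1 to 3. The highest and the lowest ratio were thus both in PTMA libraries. On the log2 scale the group means were 1.20 and 1.20, a difference of 0.0013 beside SDs of 0.10 and 0.14, and the difference was 0.05 without vector 3. The sums rest on few genes. Bcl2a1b and Bcl2a1d gave 38.8% to 45.3% and 32.6% to 34.0% of the pro-survival sum, and Bax 65.1% to 73.6% of the pro-death sum. The A1 part carries the uncertainty in how reads shared between the copies were counted. No test was made of this score over chosen members.

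Ratios of single partners varied more than the sums, mostly inside the groups. The log2 ratio of Bcl2 to Bax was -2.23, -2.11 and -3.11 for vector 1 to 3, against -2.18, -2.97 and -2.73 for PTMA 1 to 3. Vector 3 and PTMA 2 had the lowest ratios, and both groups held high and low libraries. The log2 ratio of Mcl1 to Bak1, the pore former that Mcl-1 holds, was 4.35, 4.45 and 4.64 in the vector and 4.16, 4.05 and 4.35 in the PTMA libraries. This was the 1 pair of 9 whose groups did not overlap, and PTMA 3 (4.3464) lay just below vector 1 (4.3534). For single genes, in CPM, the groups did not overlap in 10.8% of all genes tested, and no such share was computed for pairs. The log2 ratio of Bcl2a1b to Bcl2l11 was 2.83, 2.60 and 3.68 for vector 1 to 3, against 3.34, 3.53 and 3.29 for PTMA 1 to 3. Here the PTMA libraries lay above vector 1 and vector 2 and below vector 3. The log2 ratio of Mcl1 to Bcl2l11 was 1.73 ± 0.31 in the vector and 1.86 ± 0.15 in the PTMA libraries, and that of Mcl1 to Pmaip1 2.92 ± 0.18 and 2.84 ± 0.10 (SD, n = 3 per group). Without vector 3 the difference of group means (PTMA minus vector) was -0.46 for Bcl2 to Bax, -0.21 for Mcl1 to Bak1 and 0.67 for Bcl2a1b to Bcl2l11, where with all libraries it was -0.15, -0.29 and 0.35. It was 0.30 for Mcl1 to Bcl2l11 and -0.18 for Mcl1 to Pmaip1, where with all libraries it was 0.12 and -0.08.

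**Figure D3:**
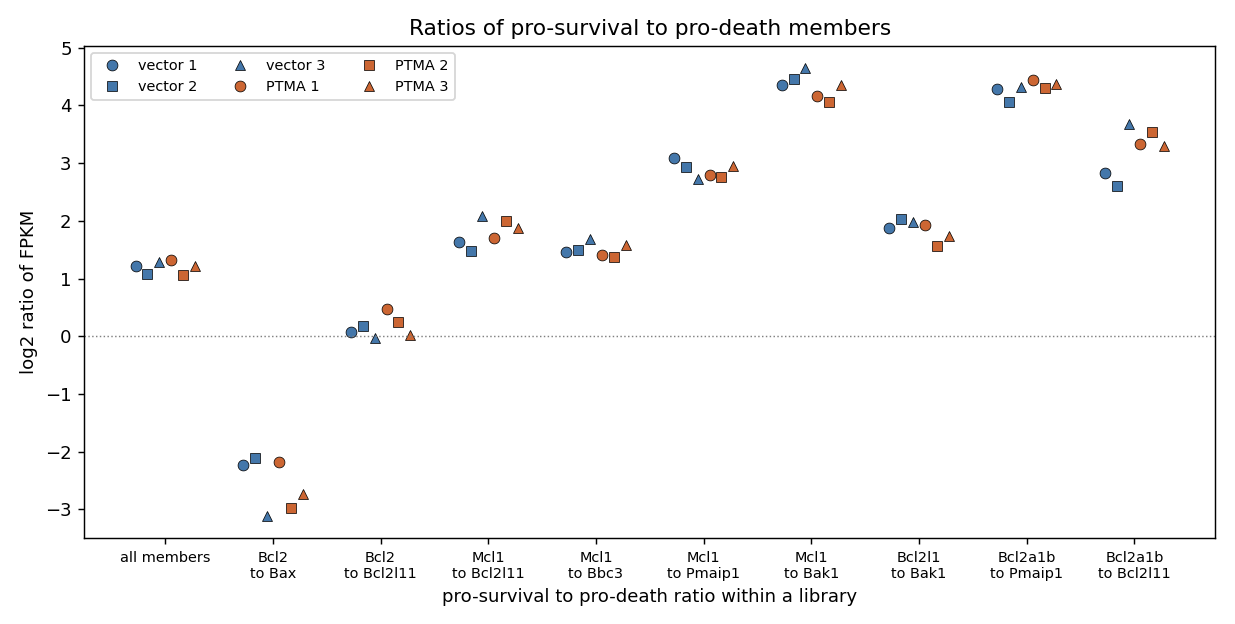
Log2 ratio of FPKM of pro-survival to pro-death members within each library, for the sums of all 10 members and for 9 pairs, with a point per library (vector blue, PTMA orange). The sums lie between 1.06 and 1.33 in all 6 libraries, while Bcl2 to Bax spans -3.11 to -2.11.

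The deviation of vector 3 went with the length of the genes. On TMM-scaled CPM, vector 3 lay above the mean of vector 1 and vector 2 by 0.55 (log2) for Bcl2a1b, 0.39 for Bcl2a1d, 0.39 for Pmaip1 and 0.37 for Bax. The same difference was -0.57 for Bcl2 and -0.41 for Bcl2l11. The annotated exons of the A1 genes cover 817 and 863 bases, those of Bax 1576 and those of Pmaip1 2732. Those of Bcl2l11 cover 8029 and those of Bcl2 9157. Over 12304 genes split by exon length into 4 bins of about equal size, the same difference of vector 3 had a median of 0.20 in the shortest bin and of -0.14 in the longest. PTMA 2 deviated from PTMA 1 and PTMA 3 the same way, by 0.07 in the shortest and -0.06 in the longest bin, and its difference was 0.31 for Bax, -0.21 for Bcl2l11 and -0.20 for Bcl2. The shortest members did not stand out in PTMA 2, with 0.0099 for Bcl2a1b and 0.06 for Bcl2a1d. Bbc3 and Bak1, whose exons cover 2124 and 2407 bases, had values of -0.10 and -0.13 in vector 3. These were opposite in sign to those of the A1 genes, of Bax and of the longer Pmaip1.

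Between the groups the median log2 fold change was 0.02 in the shortest bin, 0.04 and -0.0038 in the next ones and -0.07 in the longest. Without vector 3 the medians of the shortest and longest bins were 0.10 and -0.11, with the same signs as the values of Bcl2a1b and Bcl2l11. An alternative added after the data were seen kept all 6 libraries and removed the trend with exon length in each. The log2 fold change was then -0.19 for Bcl2l11 (edgeR adjusted p = 0.923) and -0.0036 for Bcl2 (edgeR adjusted p = 0.998). For Bcl2a1b it was 0.12 (edgeR adjusted p = 0.923). With all 6 libraries and the trend left in, the values were -0.26 for Bcl2l11, -0.09 for Bcl2 and 0.08 for Bcl2a1b.

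**Figure D4:**
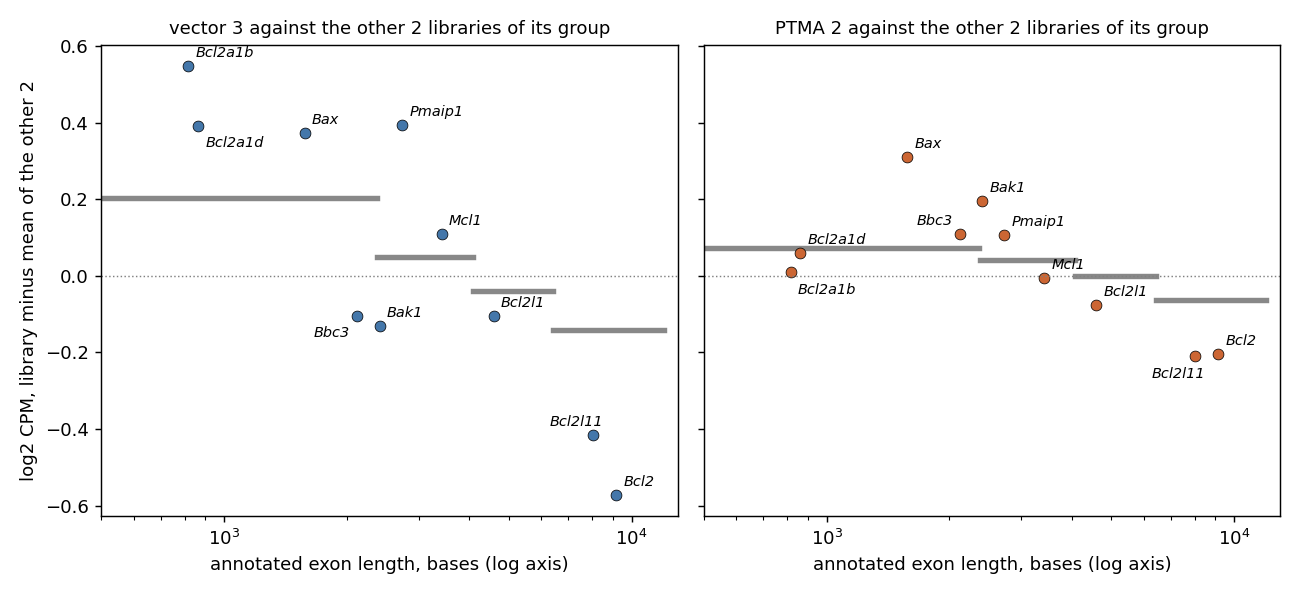
Deviation in log2 CPM of vector 3 (left) and PTMA 2 (right) from the mean of the other libraries of the same group, against annotated exon length on a log axis, for the 10 members (points). Grey bars are the medians of all genes in each of 4 bins of exon length, drawn only within the plotted range, and fall from 0.20 to -0.14 for vector 3 and from 0.07 to -0.06 for PTMA 2.

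Of 19 further genes of the family, 17 had a row and 15 were tested. Bcl2a1c and Bcl2l15 did not pass the filter on low counts, and Hrk and Bcl2l16 were not analysed here. In edgeR none of the 15 passed at an adjusted p under 0.05, and 2 had an unadjusted p under 0.05 (Bcl2l10 lower and Bcl2l14 higher, where 2.72% and 1.92% of all genes had one in that direction). DESeq2 also gave 0 and the same 2 genes. Without vector 3 edgeR gave 4 of the 15 at an unadjusted p under 0.05, where 15.4% of all genes in that fit had one. Of these, Bcl2l10 was lower. Bcl2l14, Bid (log2 fold change 0.19, edgeR adjusted p = 0.317) and Bnip3 (log2 fold change 0.27, edgeR adjusted p = 0.212) were higher. In CPM the groups did not overlap for 5 of the 15, which were Bcl2l10, Bok, Bik, Bcl2l13 and Bcl2l14, beside 10.8% of all genes tested. In FPKM those of Bcl2l13 did overlap, at 6.63 to 7.23 in the vector and 6.96 to 7.28 in the PTMA libraries. Among pro-death genes Bid, which caspase-8 cleaves, stood at 63.3 ± 4.8 and 69.2 ± 4.4 CPM, and Bad, which growth factor kinases silence, at 22.5 ± 2.26 and 24.8 ± 1.45 CPM (SD, n = 3 per group, vector then PTMA). Bmf, a BH3-only gene, stood at 19.7 ± 2.76 and 19.4 ± 0.84 CPM. The pore former relative Bok had counts of 28, 18 and 12 for vector 1 to 3 against 8, 11 and 0 for PTMA 1 to 3, and the 0 allows up to 3 counts. Bik was at 1.71 ± 0.09 and 1.45 ± 0.17 CPM and the pro-survival gene Bcl2l2 at 1.21 ± 0.375 and 0.825 ± 0.51 CPM, so both had low values (SD, n = 3 per group). The gene Gm20521 on the same strand shares exon positions with Bcl2l2. How reads in shared exons were counted is unknown, so the Bcl2l2 level is uncertain. The mitophagy receptors Bnip3 (42.5 ± 5.12 and 47.7 ± 2.01 CPM) and Bnip3l (139 ± 15.8 and 144 ± 8.5 CPM) were more abundant and did not pass with all libraries. The less typical relatives Bcl2l12 (28.6 ± 2.18 and 30.1 ± 1.6 CPM), Bcl2l13 (69.1 ± 1.07 and 72 ± 1.38 CPM), Bnip1 (26.8 ± 3.21 and 25.7 ± 2.68 CPM) and Bnip2 (151 ± 14 and 146 ± 5.39 CPM) did not pass either. Bcl2l14 was rare, with counts of 34, 7 and 21 for vector 1 to 3 against 84, 86 and 53 for PTMA 1 to 3 (log2 fold change 1.70, SE 0.58, edgeR adjusted p = 0.951).

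Bcl2l10, a pro-survival relative known from ovary and oocytes, had the largest log2 fold change in size of the family genes tested. It (ENSMUSG00000032191) lies at chr9:75347758-75351649 on the plus strand. Its CPM values were 17.5, 13.4 and 17.8 for vector 1 to 3, against 5.68, 4.9 and 1.02 for PTMA 1 to 3. Every PTMA library lay below every vector library, and the vector mean was 4.2 times the PTMA mean. The log2 fold change of -2.07 (SE 0.48) did not pass the test (edgeR adjusted p = 0.807), and without vector 3 it was -2.00 (SE 0.53, adjusted p = 0.205). Oocyte markers differed in the same direction as Bcl2l10. Of 10 markers 9 were tested and all 9 had negative log2 fold changes, beside 8828 negative of all 16592 genes tested. The summed level of the 10 markers was 26.2 to 38.2 CPM in the vector and 3.7 to 9.59 CPM in the PTMA libraries. The largest single marker in the vector libraries was Gdf9, an oocyte growth factor, with 24.7, 12.5 and 19.3 CPM for vector 1 to 3 against 0.616, 1.87 and 1.28 CPM for PTMA 1 to 3. Ooep had a count of 0 in all 3 PTMA libraries, and Figla in 5 of 6 libraries. At an adjusted p under 0.05 edgeR called 1 of the oocyte markers, Gdf9, where it called 0.0121% of all genes tested. DESeq2 called 5 (Gdf9, Bmp15, Ooep, Zp3 and Zp2), where it called 0.235% of all genes. Their part in the Bcl2l10 values was not tested.

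**Figure D5:**
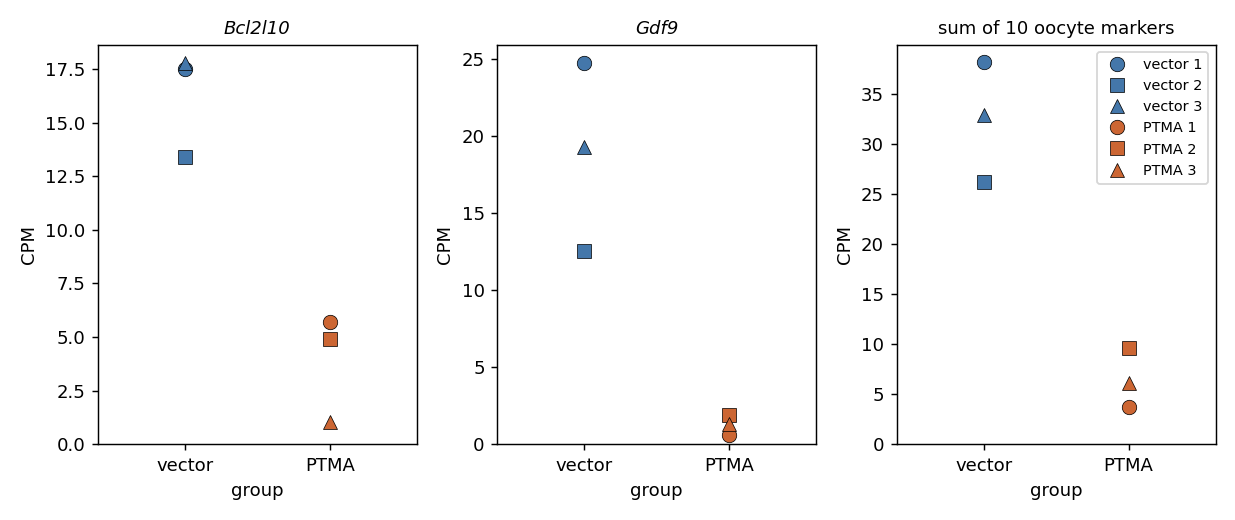
CPM of Bcl2l10, of Gdf9 and of 10 oocyte markers summed, with a point per library in the vector (blue) and PTMA (orange) groups. In each panel all 3 PTMA libraries lie below all 3 vector libraries, with Bcl2l10 between 1.02 and 5.68 CPM against 13.4 to 17.8 CPM.

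None of the 5 lists of genes that act around the family held a gene at an adjusted p under 0.05, in edgeR or in DESeq2. Of 15 partners at the outer membrane 8 had positive and 7 negative log2 fold changes (median 0.05), and none had an unadjusted p under 0.05. Without vector 3, where 15.4% of all genes had one, 5 partners were higher and 3 lower at that threshold. The smallest p-value was that of Ywhaz, a 14-3-3 protein gene of the class that holds phosphorylated Bad, at 664 ± 5.98 and 609 ± 12 CPM (SD, n = 3 per group; edgeR adjusted p = 0.951). Of 16 genes that act once the pore is open 9 were positive and 7 negative (median 0.03). There 1 had an unadjusted p under 0.05 in each direction, where 1.92% of all genes tested were higher and 2.72% lower. The higher one was Htra2, a protease freed from mitochondria (log2 fold change 0.23, SE 0.08, edgeR adjusted p = 0.951). The lower one was Apaf1, the scaffold of the apoptosome (log2 fold change -0.24, SE 0.10, edgeR adjusted p = 0.951). Without vector 3 there were 4 higher and 1 lower, where 7.68% of all genes were higher and 7.75% lower.

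Of 19 tested transcription factors known to act on family genes 6 were positive and 13 negative (median -0.03), and of 19 tested regulators of the proteins 11 were positive and 8 negative (median 0.01). None of these had an unadjusted p under 0.05 in edgeR, and 1, the p53 relative Trp73, whose counts were too low for the edgeR filter, had one in DESeq2 (adjusted p = 0.791). Without vector 3, 6 of the transcription factors and 4 of the protein regulators had one in edgeR, all lower, where 7.75% of all genes were lower at that threshold. With all libraries the smallest p-values were those of Stat5b, which carries interleukin-2 signals (log2 fold change -0.12, SE 0.06, edgeR adjusted p = 0.951), and Usp9x, a deubiquitinase of Mcl-1 (log2 fold change -0.24, SE 0.12, edgeR adjusted p = 0.951). Of 11 receptors for survival signals 6 were positive and 5 negative (median 0.01). None had an unadjusted p under 0.05 with all libraries. Without vector 3 there was 1 in each direction, where 7.68% of all genes were higher and 7.75% lower. Their smallest p-value was that of Tnfrsf4, the costimulatory receptor OX40, at 152 ± 8.96 and 167 ± 8.87 CPM (SD, n = 3 per group; edgeR adjusted p = 0.951).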

How the data were processed

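RNA of 6 libraries was measured by poly(A) RNA sequencing, and groups and replicate numbers were taken from the sample titles. The authors deposited a table of raw counts per gene and library, per the file headers, and beside them FPKM, scaled by gene length and library size by the authors. Per the submitters' processing notes the tools included Bowtie 0.12.2, StringTie 1.3.0 and HISAT2 2.0, with mm8 named as the build and no roles stated. All members' coordinates in the table share a gene start or end with GENCODE M21, so they are GRCm38. Counts were fitted with edgeR 4.0.16 in R 4.3.3 (TMM scaling, filterByExpr with a minimum count of 10, quasi-likelihood test, group as the only term). P-values were adjusted over the 16592 genes tested by Benjamini-Hochberg, with a threshold of 0.05. On simulated counts for these 16592 genes the share of truly changed genes found was 61.2% at 1.5-fold (67 genes), 85.1% at 2-fold (67 genes) and 97% at 4-fold (66 genes), beside 7 false calls. The simulated libraries took their scatter from a fitted trend with expression level and held no deviation like that of vector 3. Changed genes were drawn only from those above a minimum mean CPM, so these shares need not hold for the real libraries. Levels between genes are compared in FPKM and levels between libraries in CPM or FPKM. A count of 0 allows 3 counts, 0.0449 to 0.0546 CPM, for counting error only. Replicates were not duplicates: the chi-square per gene between them was 17.7 to 84.8.

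The members and lists were chosen with earlier results of these data known. The text names all members, the other family genes, and from each other list up to 4 genes with an unadjusted p under 0.05 or else the gene with the smallest p. These genes in marker lists outside the report were Cd79b (3.68 ± 0.445 and 5.58 ± 0.596 CPM, vector then PTMA, SD, n = 3 per group) and Ms4a1 (0.342 ± 0.0792 and 0.117 ± 0.0488 CPM) for B cells, Eomes (38.9 ± 0.246 and 33.3 ± 2.53 CPM) for NK cells, Ikzf4 (6.43 ± 1.52 and 4.99 ± 0.226 CPM) for CD4 and regulatory T cells, Cd14 (0.914 ± 0.102 and 0.964 ± 0.105 CPM) for myeloid cells and Krt14 (11.2 ± 9.83 and 2 ± 3.46 CPM) for stroma and keratinocytes. No erythroid marker was tested. Marker lists not described in the report had summed levels, in vector and PTMA libraries, of 13.3 to 18.1 and 14.8 to 16.1 CPM (CD4 and regulatory T cells), 5.16 to 7.22 and 6.72 to 8.72 CPM (B cells), 0.852 to 1.18 and 0.964 to 1.28 CPM (myeloid cells), 48.8 to 50.7 and 41.3 to 46.5 CPM (NK cells), 211 to 233 and 219 to 230 CPM (stroma and keratinocytes) and 0.321 to 0.548 and 0.0765 to 0.183 CPM (erythroid cells). Most of the stroma and keratinocyte sum was Pecam1, at 196 to 214 CPM over all libraries. Most of the NK cell sum was Eomes, at 31.0 to 39.2 CPM over all libraries. Alternatives were other scalings and filters, DESeq2 1.42.0, limma 3.58.1 on log2(FPKM + 1) or log2(FPKM + 0.1), a replicate block, leaving out each library, summed A1 copies and, added after the data were seen, a removed trend with exon length.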

Additional observations from a re-analysis of the deposited data

How the results depend on the processing

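In all 16 alternatives 0 members passed at an adjusted p under 0.05 (adjusted p 0.191 to 1, the lowest without vector 3). At an unadjusted p under 0.05 there was 1 member with DESeq2 and 0 to 2 when a library was left out (2 without vector 3). Over all genes the number called, 2 in edgeR, was 0 with no filter on low counts, 47 with DESeq2 (10 higher), 1 with limma on log2(FPKM + 1), 0 with a replicate block and 0 to 4 when a library was left out (0 without vector 1 or PTMA 3, 1 without vector 3, 4 without PTMA 2). The cause of these differences was not tested. With no filter more genes were tested (27480), and the part of that number was not tested either. The difference in pro-survival to pro-death balance stayed between -0.06 and 0.07. Some log2 fold changes near 0 changed sign: Bcl2a1d was -0.0219 with libraries scaled to the same sum and Bmf 0.0017 with the length trend removed. The summed A1 copies, fitted as 1 feature in place of the single copies, had 0.0356. When a library was left out the range was -0.0392 to 0.21 for Bax, -0.067 to 0.0185 for Bbc3, -0.25 to 0.0656 for Bcl2, -0.27 to 0.18 for Bcl2a1a, -0.041 to 0.28 for Bcl2a1b, -0.0849 to 0.15 for Bcl2a1d, -0.12 to 0.0885 for Bmf, -0.14 to 0.037 for Bnip1, -0.10 to 0.0324 for Bnip2, -0.0026 to 0.14 for Bnip3l and -0.14 to 0.0884 for Pmaip1. Bcl2l11 was negative in all 16 (-0.38 to -0.16 when a library was left out). The replicate numbers showed no pairing: deviations of libraries with the same number correlated at 0.09, -0.22 and -0.15. With the replicate block Bcl2l11 was -0.25 and the members' adjusted p 0.992 to 0.997. In simulated counts 61.2% of 1.5-fold changes were recovered, so changes of that size can be missed with 3 libraries a group. The simulated libraries held no deviation like that of vector 3, so that share need not hold for the real ones.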
